A study of Mus musculus with 4 samples.

Results

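Transcripts of the laminin chains, the nidogens and the integrins were measured in cells grown directly from the mouse inner ear, as vestibular cultures (2 samples) and cochlear cultures (2 samples). Members were taken by gene symbol: every laminin alpha, beta and gamma chain gene, both nidogen genes, and every integrin alpha and beta chain gene. The rule found 39 of the 24346 symbols measured, made up of 13 laminin and nidogen genes and 26 integrin genes (18 alpha chains and 8 beta chains). The design compares cells of the vestibule, the balance part of the inner ear, with cells of the cochlea, its hearing part. No treatment is named in the labels, and the sources used here do not give the strain, sex, age or genotype of the mice. The labels number the samples 1 and 2 in each group and do not state whether these are different animals or cultures. Each p-value therefore reflects the spread among these 4 libraries alone, which may be technical.

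Laminins are the cross-shaped heterotrimers, each of an alpha, a beta and a gamma chain, that assemble on the cell surface into the first sheet of a basement membrane. Nidogens link that sheet to the type IV collagen network, by binding the laminin gamma chain. Integrins are receptors of an alpha and a beta chain that span the cell membrane, bind matrix proteins outside and connect to actin or keratin filaments inside. In the inner ear, basement membranes underlie the sensory epithelia and surround the vessels of the stria vascularis, and defects of type IV collagen cause hearing loss.

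Levels are given as FPKM, the fragments of a gene scaled by transcript length and library size, so levels of different genes can be set side by side within a library. Differences are vestibular minus cochlear, in log2(FPKM + 1), so that those of genes with low levels are understated. They were tested with limma, which shares the spread over all 13200 genes whose mean FPKM was at least 1, with Benjamini-Hochberg adjustment over those genes. An exact 2-sided permutation test could not go below p = 0.333 here. No member passed limma at an adjusted p of 0.05 (0 of 34 tested, while 0.0303% of all genes passed), and 8 of the 34 had an unadjusted p under 0.05, against 18.2% of all genes. The differences below are therefore levels that lay apart, given with their errors, and none is a call.

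The cell types in the cultures were checked with marker genes. Epithelial markers summed to 994 and 99.4 FPKM in vestibular libraries 1 and 2, and to 1918 and 2287 FPKM in cochlear libraries 1 and 2. Fibroblast markers summed to 2663 and 6027 FPKM in the vestibular libraries and to 1253 and 780 FPKM in the cochlear libraries. Macrophage markers summed to 8837, 6705 and 6797 FPKM in vestibular 1, vestibular 2 and cochlear 1, and to 30.2 FPKM in cochlear 2, where 9 of the 13 markers were under 1 FPKM. Vestibular 2 also stood apart, with cartilage markers at 4203 FPKM and melanocyte markers at 220 FPKM, against at most 752 and 2.95 FPKM in any other library. The cartilage sum was 752 FPKM in vestibular 1, above the 192 and 191 FPKM of the cochlear libraries. Of 8 hair cell markers, 5 were under 1 FPKM in every library. Fewer cells of a type and less RNA per cell cannot be told apart in such bulk samples.

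Across the family, Itgb1, the beta chain shared by most integrins outside the blood, had the highest level of all members in every library, at 276 and 339 FPKM in the vestibular libraries, against 327 and 272 FPKM in the cochlear libraries. The groups overlapped for Itgb1. Of the 34 members tested, 10 had both vestibular libraries above both cochlear libraries and 11 had both below, against 26.9% and 28.4% of all genes. The 21 members with no overlap thus stood against 55.3% of all genes. The median difference was 0.24 over the 11 laminin and nidogen genes tested and 0.27 over the 23 integrin genes, against 0.01 over all genes. Members differed more within a group than genes in general: the median absolute log2 difference between the vestibular libraries was 0.76 over the members and 0.22 over all genes, and between the cochlear libraries it was 0.32 and 0.17.

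**Figure D1:**
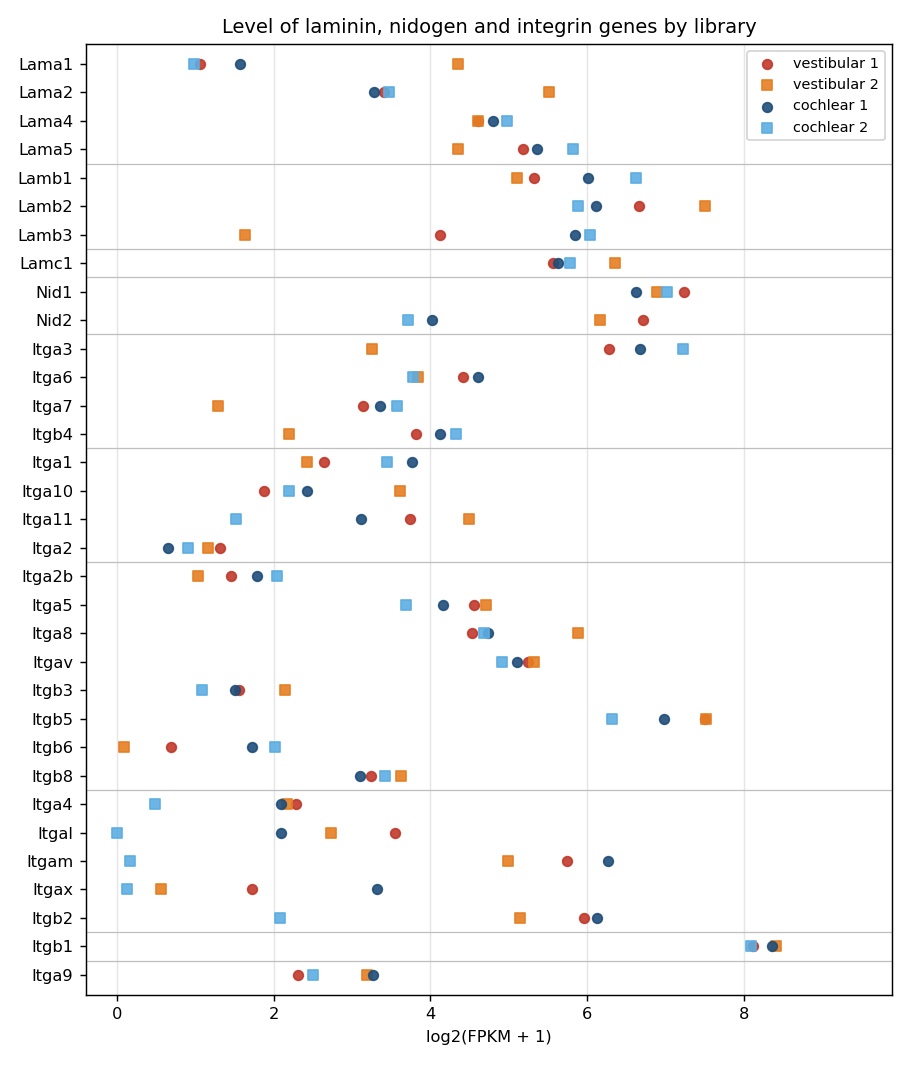
Level of 33 of the members tested, as log2(FPKM + 1), with 1 point per library and members grouped by role between the grey lines. Nid2 and Lamb2 lie further right in both vestibular libraries, Lamb3 and Lamb1 further right in both cochlear libraries, and the leukocyte chains lie far left in cochlear 2.

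The 5 members under the filter were Lama3, Lamc3, Itgad, Itgae and Itgb7. Lama3, the alpha chain of the laminin that anchors skin and other lining epithelia, had 1.03 and 0.613 FPKM in the vestibular libraries and 1.02 and 0.863 FPKM in the cochlear libraries. Lamc3, a minor gamma chain, had 0.256 and 0.691 FPKM in the vestibular libraries and 0.0484 and 0.0315 FPKM in the cochlear libraries. Both genes were low wherever they were measured. Itgad was at 0.139 FPKM in vestibular 1 and listed at 0 in the other libraries. Itgae, the alpha chain of an epithelium-homing lymphocyte integrin, stayed at or under 0.102 FPKM. Its partner Itgb7 had 0.0849 and 1.95 FPKM in the vestibular libraries, against 0.150 and 0.110 FPKM in the cochlear libraries, so vestibular 2 alone exceeded 1 FPKM.

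Starts of the laminin beta chain genes are shown because the beta chains were the class in which every member lay apart between the groups. The windows run from 250 bases before to 50 after the annotated start on the plus strand (RefSeq, GRCm38.p6), and a window was matched for 24 of the 39 members. Capitals mark matches, on either strand, to the Sp1 motif GGGCGG or the CCAAT box, and matches to the AP-1 motif TGANTCA and to TATAAA were searched as well. The Lamb1 window is chr12:31265043-31265342, the Lamb2 window chr9:108479612-108479911 and the Lamb3 window chr1:193301744-193302043.
Lamb1: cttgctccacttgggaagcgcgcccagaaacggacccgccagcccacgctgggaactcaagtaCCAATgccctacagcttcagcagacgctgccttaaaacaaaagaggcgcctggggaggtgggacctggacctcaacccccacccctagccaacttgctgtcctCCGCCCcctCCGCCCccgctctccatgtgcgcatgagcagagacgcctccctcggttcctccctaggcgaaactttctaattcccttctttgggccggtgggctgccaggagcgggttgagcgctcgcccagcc
Lamb2: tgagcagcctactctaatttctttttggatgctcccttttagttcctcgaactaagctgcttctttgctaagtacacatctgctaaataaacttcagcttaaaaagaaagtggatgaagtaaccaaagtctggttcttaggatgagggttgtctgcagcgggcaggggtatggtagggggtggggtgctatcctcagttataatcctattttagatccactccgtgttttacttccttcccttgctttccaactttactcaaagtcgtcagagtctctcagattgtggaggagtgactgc
Lamb3: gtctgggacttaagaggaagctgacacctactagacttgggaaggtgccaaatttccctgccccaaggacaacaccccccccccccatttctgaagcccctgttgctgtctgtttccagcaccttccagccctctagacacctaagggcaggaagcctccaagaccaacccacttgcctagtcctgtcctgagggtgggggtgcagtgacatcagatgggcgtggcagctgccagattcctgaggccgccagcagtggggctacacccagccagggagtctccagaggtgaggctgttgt
The Lamb1 window held 2 matches to the Sp1 motif and 1 CCAAT box, with no overlap among them, and neither TGANTCA nor TATAAA. The Lamb2 and Lamb3 windows held none of the 4 motifs, and neither did the window of another annotated Lamb3 start. GGGCGG was present in 35.7% of all 32851 windows, CCAAT in 37.4%, TGANTCA in 7.81% and TATAAA in 13.6%. The Lamb1 window was 63.7% G or C, the Lamb2 window 44.0% and the Lamb3 window 59.3%. These matches describe letters in the windows and say nothing of which factors bind there.

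Among the beta chains, Lamb2 lay above and Lamb1 and Lamb3 lay below in the vestibular cultures. Lamb2, a chain of vessel, kidney filter and synaptic basement membranes, had 101 and 181 FPKM in the vestibular libraries and 68.3 and 58.3 FPKM in the cochlear libraries. Its log2 difference was 1.08 (SE 0.33, limma adjusted p 0.244), and 0.66 without vestibular 2. Lamb1, the beta chain of most embryonic laminins, had 38.9 and 33.4 FPKM in the vestibular libraries and 63.4 and 97.4 FPKM in the cochlear libraries (log2 difference -1.10, SE 0.25, limma adjusted p 0.195). Both genes separated the groups without overlap, in opposite directions. The ratio of Lamb2 to Lamb1 was 2.58 and 5.41 in the vestibular libraries and 1.08 and 0.599 in the cochlear libraries, so Lamb2 exceeded Lamb1 in both vestibular libraries and in 1 of the 2 cochlear libraries. Lamb2 lies on chromosome 9 at 108479736 to 108490530 and Lamb1 on chromosome 12 at 31265234 to 31329644, both on the plus strand of GRCm38, the assembly behind mm10.

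Fibroblast markers were higher with Lamb2, and per 100 FPKM of their sum the order of the groups turned: Lamb2 had 3.78 and 3.0 FPKM in the vestibular libraries and 5.45 and 7.48 FPKM in the cochlear libraries. That sum was mostly Col1a2 and Dcn, so the scale rests on them. Col1a2 had 1140 and 3452 FPKM in the vestibular libraries and 492 and 218 FPKM in the cochlear libraries. Pdgfra, another of the 10 fibroblast markers, had 28.5 and 29.4 FPKM in the vestibular libraries, against 24.6 and 22.1 FPKM in the cochlear libraries. The order of Lamb2 per FPKM of a single marker was not tested. Epithelial markers were lower with Lamb1, and per 100 FPKM of their sum the groups overlapped, at 3.92 and 33.6 FPKM in the vestibular libraries, against 3.31 and 4.26 FPKM in the cochlear libraries. Of 6 pericyte and smooth muscle markers tested, 4 also lay above in both vestibular libraries and 0 below, against 26.9% and 28.4% of all genes. The part of any of these cell types in the differences of Lamb2 and Lamb1 was not tested.

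Lamb3, the beta chain of the epithelial laminin to which Lama3 belongs, had 16.4 and 2.11 FPKM in the vestibular libraries and 56.5 and 65.0 FPKM in the cochlear libraries. It was highest in the cochlear libraries, intermediate in vestibular 1 and lowest in vestibular 2. The log2 difference was -3.07 (SE 0.92, limma adjusted p 0.239), and without vestibular 2 it was -1.82. The alpha chain Lama3 stayed low in all libraries: Lamb3 exceeded it 15.9-fold and 3.43-fold in the vestibular libraries and 55.4-fold and 75.3-fold in the cochlear libraries.

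Epithelial markers moved with Lamb3, with 10 of 10 markers lower in the vestibular mean and 9 of 10 without overlap between the groups. Per 100 FPKM of the summed epithelial markers, Lamb3 had 1.65 and 2.12 FPKM in the vestibular libraries and 2.95 and 2.84 FPKM in the cochlear libraries. The vestibular values stayed below the cochlear ones on this scale, over a much narrower range than the levels themselves. The part of epithelial content in the difference was not tested.

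Lamc1, the gamma chain of most laminins and the one with the high-affinity nidogen site, had 46.2 and 80.7 FPKM in the vestibular libraries and 48.3 and 54.0 FPKM in the cochlear libraries. The groups overlapped (log2 difference 0.25, SE 0.31, limma adjusted p 0.680).

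**Figure D2:**
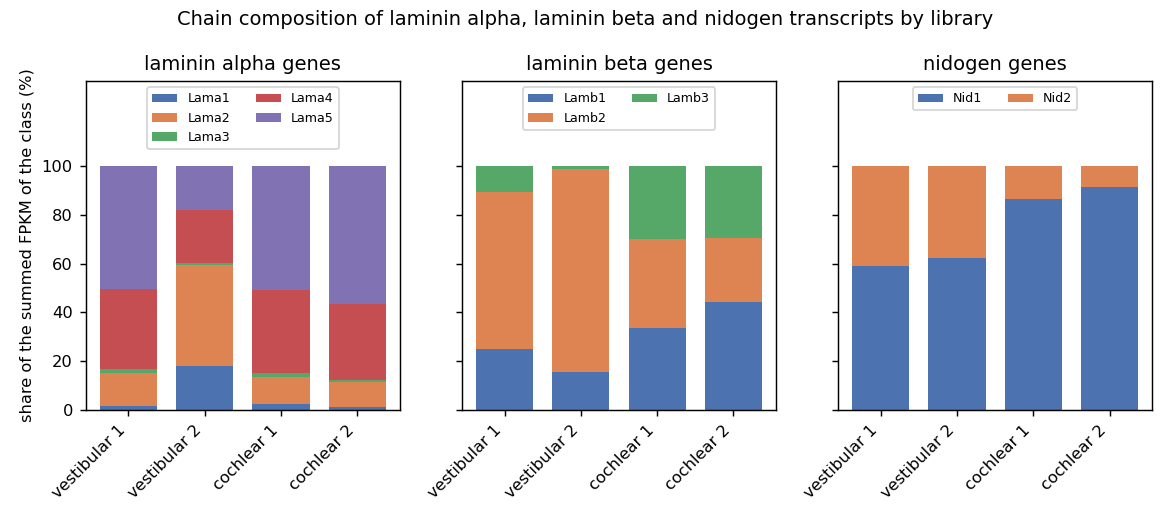
Share of each gene in the summed FPKM of its class (percent), with 1 stacked bar per library for the laminin alpha chains, the laminin beta chains and the nidogens. Lamb2 made up 64.5% and 83.6% of beta chain FPKM in the vestibular libraries against 36.3% and 26.4% in the cochlear libraries, and Nid2 40.9% and 37.5% of nidogen FPKM against 13.5% and 8.61%.

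The alpha chains separated the groups less. Lama5, the main alpha chain of adult epithelial and vessel basement membranes, had 35.5 and 19.5 FPKM in the vestibular libraries and 40.1 and 55.4 FPKM in the cochlear libraries (log2 difference -0.82, SE 0.36, limma adjusted p 0.337), and the difference was -0.40 without vestibular 2. Per 100 FPKM of the summed epithelial markers Lama5 lay above in the vestibular cultures, with 3.57 and 19.6 FPKM in the vestibular libraries and 2.09 and 2.42 FPKM in the cochlear libraries. Lama4, an alpha chain of vessels and mesenchyme, had 23.4 and 23.4 FPKM in the vestibular libraries and 26.9 and 30.4 FPKM in the cochlear libraries. Both lay below in the vestibular cultures without overlap, by a small margin for Lama4 (log2 difference -0.28, SE 0.11, limma adjusted p 0.311). Lama2, the alpha chain of muscle and Schwann cell basement membranes, had 9.61 and 44.5 FPKM in the vestibular libraries and 8.72 and 10.05 FPKM in the cochlear libraries. Lama1, an alpha chain of early embryonic basement membranes, had 1.08 and 19.4 FPKM in the vestibular libraries and 1.97 and 0.969 FPKM in the cochlear libraries. For these 2 genes a single library stood high, vestibular 2, and vestibular 1 lay between the cochlear libraries. Schwann cell markers summed to 71.6 and 206 FPKM in the vestibular libraries, against 150 and 140 FPKM in the cochlear libraries, and skeletal muscle markers summed to at most 3.08 FPKM. The Schwann cell sum of vestibular 2 was mostly S100b at 178 FPKM. Sox10 had 37.7 and 15.5 FPKM in the vestibular libraries, against 108 and 100.4 FPKM in the cochlear libraries, and like Mbp it was lowest in vestibular 2. The summed FPKM of the alpha chains averaged 89.0 ± 26.1 over the vestibular libraries and 88.2 ± 13.4 over the cochlear libraries (SD, n = 2 each). That of the beta chains averaged 186 ± 42.7 over the vestibular libraries and 204 ± 23.0 over the cochlear libraries. Both sums differed by less than the spread between replicates. The nidogen sum did not overlap, with 254 and 188 FPKM in the vestibular libraries and 113 and 141 FPKM in the cochlear libraries.

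Nid2, the nidogen with the narrower tissue distribution, gave the smallest p of all members. It had 104 and 70.5 FPKM in the vestibular libraries and 15.2 and 12.1 FPKM in the cochlear libraries. Its mean was 87.2 ± 23.6 FPKM in vestibular and 13.7 ± 2.2 FPKM in cochlear cultures (SD, n = 2 each), a ratio of 6.38. The lower vestibular library stood well above the higher cochlear library. The log2 difference was 2.57 (SE 0.25, unadjusted p 0.000725), and it did not pass limma (adjusted p 0.0920). Nid1, the nidogen of nearly all basement membranes, had 150 and 118 FPKM in the vestibular libraries and 97.9 and 129 FPKM in the cochlear libraries. Its groups overlapped (log2 difference 0.24, SE 0.21, limma adjusted p 0.569). Nid1 exceeded Nid2 in all 4 libraries, 1.45-fold and 1.67-fold in the vestibular and 6.43-fold and 10.6-fold in the cochlear libraries.

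Nid2 lies on the plus strand of chromosome 14 at 19751265 to 19811787. Of its 5174 exonic bases, 437 (8.45%) overlap Rtraf on the other strand, and the sources used here do not give the strand setting of the counting. Rtraf, listed under its older symbol, had 89.1 and 82.5 FPKM in the vestibular libraries and 85.3 and 89.2 FPKM in the cochlear libraries. The part of reads from the shared bases in the Nid2 levels was not tested. Fibroblast markers moved with Nid2 between the groups, with 10 of 10 higher in the vestibular mean and 6 of 10 without overlap. Within the vestibular group most of the 10 markers ran opposite to Nid2, being higher in vestibular 2, where Nid2 was lower. The sum was also higher in vestibular 2, mostly Col1a2 at 3452 FPKM and Dcn at 1542 FPKM. Only Col1a1, Dpt and Col6a3 were higher in vestibular 1, as Nid2 was. Per 100 FPKM of summed fibroblast markers Nid2 had 3.90 and 1.17 FPKM in the vestibular libraries, against 1.21 and 1.55 FPKM in the cochlear libraries, where the groups overlap. The part of fibroblast content in the Nid2 difference was not tested.

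**Figure D3:**
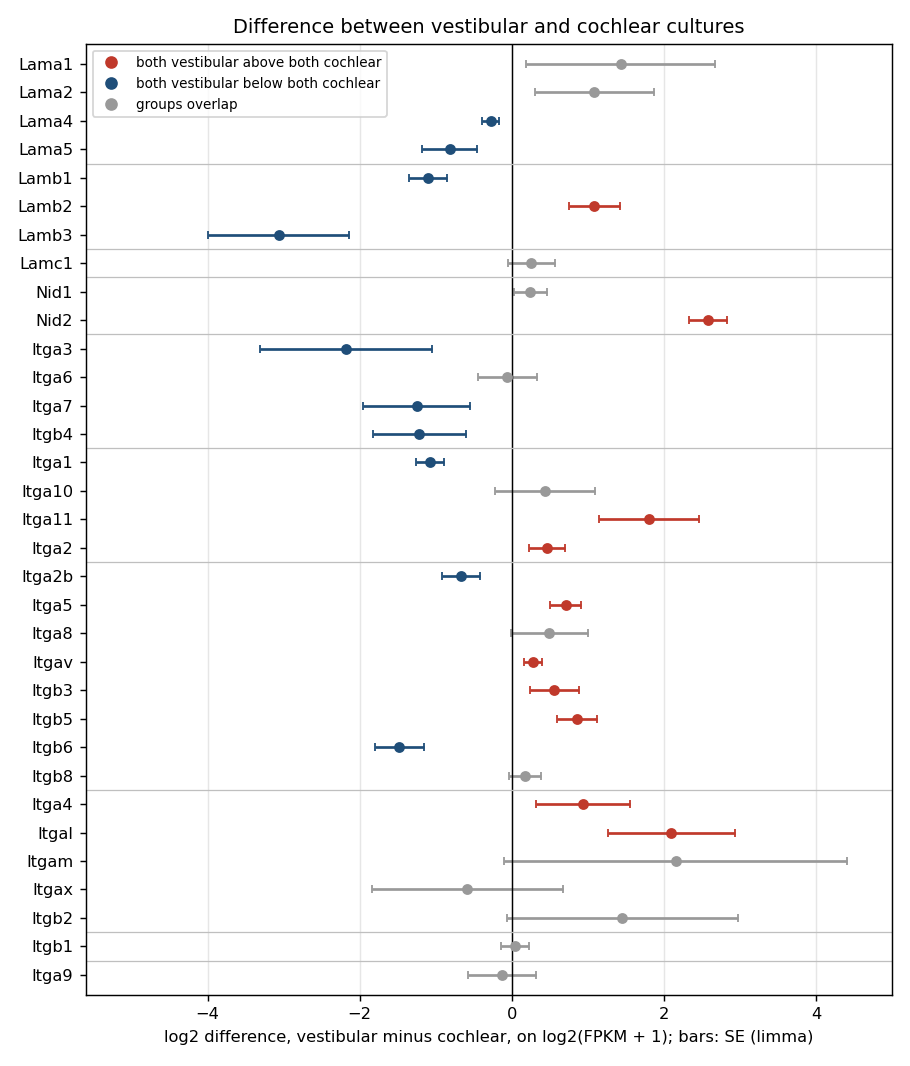
Log2 difference, vestibular minus cochlear, of 33 of the members tested on the log2(FPKM + 1) scale, with the standard error from limma as a bar and colour for the order of the 4 libraries. Nid2 lies furthest to the right at 2.57 and Lamb3 furthest to the left at -3.07, and the widest bars belong to Itgam, Itgb2, Itgax and Lama1.

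All 4 integrin chains known for laminin binding had lower means in the vestibular cultures. Of these, 3 lay below without overlap, as did 28.4% of all genes. Itga3, which pairs with Itgb1 and binds the epithelial laminins, had 76.8 and 8.58 FPKM in the vestibular libraries and 101 and 148 FPKM in the cochlear libraries (log2 difference -2.18, SE 1.13, limma adjusted p 0.390). Itgb4, the hemidesmosome beta chain, had 13.1 and 3.59 FPKM in the vestibular libraries and 16.4 and 19.1 FPKM in the cochlear libraries (log2 difference -1.22, SE 0.61). Itga7, a laminin receptor chain best known from muscle, had 7.83 and 1.43 FPKM in the vestibular libraries and 9.20 and 10.95 FPKM in the cochlear libraries. In these 3 genes vestibular 1 lay near the cochlear libraries and vestibular 2 far below. Itga6, the partner of Itgb4, had 20.4 and 13.3 FPKM in the vestibular libraries and 23.4 and 12.7 FPKM in the cochlear libraries, and the groups overlapped. Without vestibular 2 the difference of Itga3 was -0.67, that of Itgb4 -0.41 and that of Itga7 -0.32.

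Itga3 and the summed epithelial markers had the same order of libraries. That sum was mostly Krt8 and Krt18, except in vestibular 2, where they had 10.5 and 11.6 FPKM. The order of Itga3 per FPKM of a single marker was not tested. Per 100 FPKM of summed epithelial markers Itga3 had 7.73 and 8.63 FPKM in the vestibular libraries and 5.28 and 6.49 FPKM in the cochlear libraries, so on that scale the vestibular cultures lay above. Itgb4 likewise had 1.32 and 3.61 FPKM per 100 in the vestibular libraries, against 0.855 and 0.836 FPKM in the cochlear libraries. Itga7 had 0.788 and 1.44 FPKM per 100 in the vestibular libraries and 0.480 and 0.479 FPKM in the cochlear libraries. Lamb3 had the cochlear libraries above on that scale. Itgb6, an epithelial beta chain that pairs with Itgav and activates latent TGF-beta, also did, at 0.0621 and 0.0621 FPKM per 100 in the vestibular libraries, against 0.120 and 0.133 FPKM in the cochlear libraries.

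**Figure D4:**
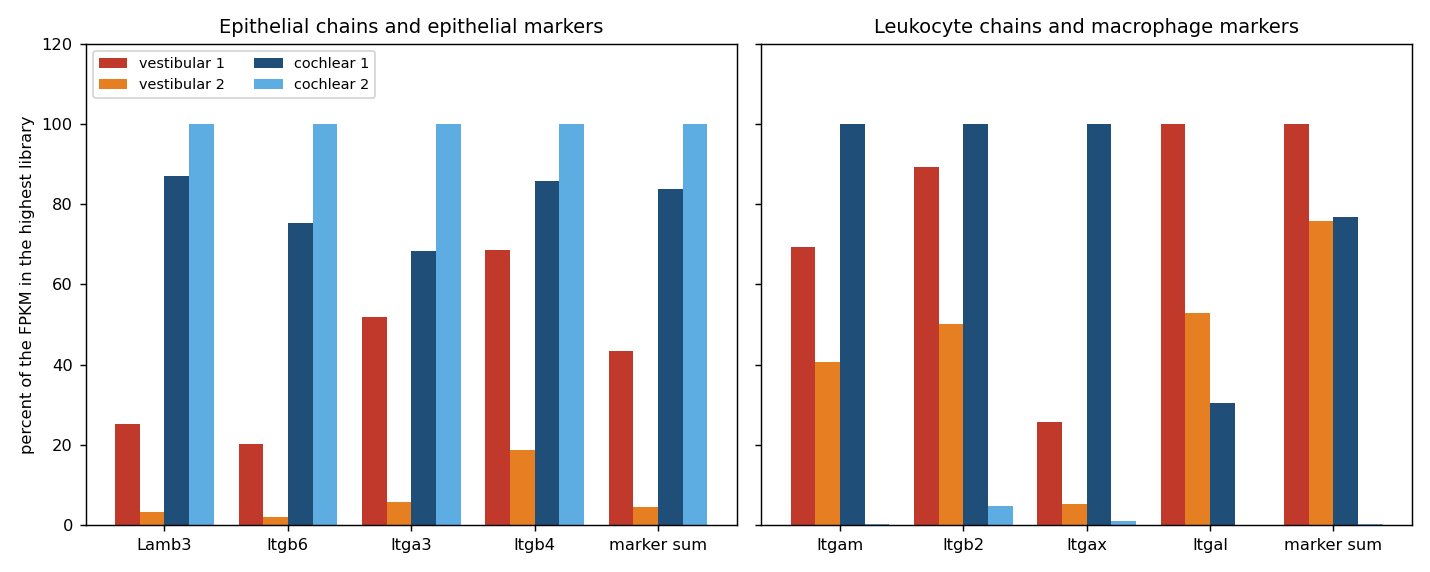
Level in each library as a percent of the highest library, from 0, for members known in epithelium (left) and in leukocytes (right), beside the summed FPKM of epithelial and of macrophage markers. The epithelial members share the low bar of vestibular 2, at 2.11 FPKM for Lamb3 and 8.58 FPKM for Itga3, and the leukocyte members share the low bar of cochlear 2, at 0.121 FPKM for Itgam.

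Collagen-binding alpha chains went different ways. Itga1, a receptor chain for type IV and other collagens, had 5.22 and 4.39 FPKM in the vestibular libraries and 12.6 and 9.92 FPKM in the cochlear libraries. It lay below in the vestibular cultures without overlap (log2 difference -1.08, SE 0.18, limma adjusted p 0.145), with the smallest p of the integrins. Itga2, its neighbour on the minus strand of chromosome 13 with 21 kb between them, had 1.49 and 1.24 FPKM in the vestibular libraries and 0.575 and 0.877 FPKM in the cochlear libraries, the opposite order. Itga11, a fibroblast receptor chain for fibrillar collagen, had 12.4 and 21.6 FPKM in the vestibular libraries and 7.69 and 1.87 FPKM in the cochlear libraries (log2 difference 1.80, SE 0.66, limma adjusted p 0.285). Without cochlear 2 the difference was 1.0. Itga11 and the summed fibroblast markers had the same order of libraries, and per 100 FPKM of that sum the groups overlapped. Itga10, a chondrocyte receptor chain, had 2.66 and 11.3 FPKM in the vestibular libraries and 4.39 and 3.56 FPKM in the cochlear libraries. Vestibular 2 alone stood high for Itga10. The cartilage marker sum was also highest there, at 4203 FPKM, but vestibular 1 with 752 FPKM lay above the cochlear libraries too, at 192 and 191 FPKM. Of the exonic bases of Itga10, 33.5% are shared with another annotated gene of the same strand, Gm42957.

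Of the 8 chains for RGD ligands, 4 had both vestibular libraries above both cochlear libraries and 2 had both below, against 26.9% and 28.4% of all genes. Itgb5, a partner of Itgav in vitronectin binding, had 181 and 182 FPKM in the vestibular libraries and 126 and 78.7 FPKM in the cochlear libraries (log2 difference 0.86, SE 0.26, limma adjusted p 0.244). Itga5, the fibronectin receptor chain, had 22.6 and 25.1 FPKM in the vestibular libraries and 17.0 and 11.9 FPKM in the cochlear libraries (log2 difference 0.71, SE 0.21, limma adjusted p 0.235). In both genes the vestibular libraries were close together and the cochlear libraries spread, with cochlear 2 lowest. Without cochlear 2 the difference was 0.53 for Itgb5 and 0.47 for Itga5. Fibroblast markers were higher along with both genes, and per 100 FPKM of their sum both orders turned. On that scale Itgb5 had 6.80 and 3.01 FPKM in the vestibular libraries and 10.03 and 10.08 FPKM in the cochlear libraries. Itga5 had 0.848 and 0.416 FPKM on it in the vestibular libraries and 1.35 and 1.52 FPKM in the cochlear libraries. That sum was mostly Col1a2 and Dcn, and Pdgfra on the same list differed less between the groups than the sum did. The part of fibroblast content was not tested. Itgav itself varied little, at 36.9 and 39.0 FPKM in the vestibular libraries, against 33.5 and 29.1 FPKM in the cochlear libraries. Itgb3, which pairs with Itgav or Itga2b, had 1.94 and 3.43 FPKM in the vestibular libraries, against 1.84 and 1.12 FPKM in the cochlear libraries.

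Itgb6 had 0.617 and 0.0617 FPKM in the vestibular libraries and 2.30 and 3.05 FPKM in the cochlear libraries, the largest ratio of means among the integrins tested that were lower in the vestibular cultures (7.88). Its log2 difference was -1.48 (SE 0.32, limma adjusted p 0.188), and -3.01 with a pseudocount of 0.1, as its levels are low. Itgb8, which also activates latent TGF-beta with Itgav, had 8.45 and 11.4 FPKM in the vestibular libraries, against 7.61 and 9.71 FPKM in the cochlear libraries, with overlap. Itga8, the receptor chain for nephronectin, had 22.1 and 58.0 FPKM in the vestibular libraries and 25.8 and 24.7 FPKM in the cochlear libraries. Its high value was again that of vestibular 2, where the nephronectin gene Npnt also stood highest, at 53.1 and 289 FPKM in the vestibular libraries, against 26.2 and 19.6 FPKM in the cochlear libraries. Itga2b, the platelet fibrinogen receptor chain, had 1.75 and 1.05 FPKM in the vestibular libraries and 2.46 and 3.10 FPKM in the cochlear libraries. Of 5 platelet markers, 3 were under 1 FPKM in every library, Gp9 among them, and the sum of 41.8 and 20.02 FPKM in the vestibular libraries and 99.2 and 1.41 FPKM in the cochlear libraries was mostly Pf4 in the first 3 of these libraries. Pf4 had 39.1 and 16.9 FPKM in the vestibular libraries, 97.9 FPKM in cochlear 1 and was listed at 0 in cochlear 2, and Gp1bb had between 1.11 and 3.17 FPKM. The part of platelet content in the Itga2b levels was not tested. Itga9, which binds tenascin-C with Itgb1, had 3.98 and 8.16 FPKM in the vestibular libraries, against 8.61 and 4.66 FPKM in the cochlear libraries, with overlap.

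Among the leukocyte chains, cochlear 2 stood apart. Itgam, the alpha chain of the complement receptor of macrophages, had 52.5 and 30.7 FPKM in the vestibular libraries, 75.7 FPKM in cochlear 1 and 0.121 FPKM in cochlear 2. Itgb2, the beta chain of that receptor, had 61.3 and 34.4 FPKM in the vestibular libraries, 68.7 FPKM in cochlear 1 and 3.23 FPKM in cochlear 2. Itgax, the alpha chain of a further complement receptor, had 2.30 and 0.469 FPKM in the vestibular libraries and 8.97 and 0.0945 FPKM in the cochlear libraries. Cochlear 1 was the highest library for all 3 genes and cochlear 2 the lowest. The log2 difference was 2.15 for Itgam and 1.45 for Itgb2, and without cochlear 2 it was -0.90 and -0.57, so the direction of both turned with that library. The macrophage marker sum was likewise lowest there, and Csf1r and Adgre1, which define macrophages, were at 0.148 and 0.119 FPKM in cochlear 2. The part of macrophage content in these differences was not tested. Of the exonic bases of Itgam, 68.7% are shared with an annotated gene of the same strand, Gm49368.

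Itgal, the alpha chain of the lymphocyte function antigen that macrophages also carry, differed from these in its order. It had 10.7 and 5.65 FPKM in the vestibular libraries, 3.26 FPKM in cochlear 1 and was listed at 0 in cochlear 2, so the vestibular libraries stood above both cochlear libraries (log2 difference 2.1, SE 0.84, limma adjusted p 0.307). Without cochlear 2 the difference was 1.05, and without cochlear 1 it was 3.14. Lymphocyte markers were under 1 FPKM in all 4 libraries, and Cd3g and Ms4a1 were listed at 0 in each. Itga4, the receptor chain for VCAM1, had 3.88 and 3.48 FPKM in the vestibular libraries and 3.27 and 0.403 FPKM in the cochlear libraries, with a log2 difference of 0.93 that was 0.13 without cochlear 2. It shares 8.04% of its exonic bases with Cerkl on the other strand. In cochlear 2 Itgb2 exceeded Itgam 26.7-fold, against 1.17-fold and 1.12-fold in the vestibular libraries and 0.907-fold in cochlear 1, so the chains were not low in that library in equal proportion.

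Genes that work with the members were read from lists of partners, of which no gene passed limma. Of the 22 basement membrane partners tested, 4 had an unadjusted p under 0.05 with higher and 3 with lower vestibular levels (7.61% and 10.6% of all genes), and the median difference was 0.24. Col4a6, a type IV collagen chain of epithelial and smooth muscle basement membranes, had 3.82 and 2.97 FPKM in the vestibular libraries and 10.3 and 10.5 FPKM in the cochlear libraries (log2 difference -1.38, SE 0.16, limma adjusted p 0.107). Col15a1, a basement membrane collagen of vessels and muscle, had 8.85 and 6.39 FPKM in the vestibular libraries and 1.499 and 1.02 FPKM in the cochlear libraries (log2 difference 1.92, SE 0.24, limma adjusted p 0.112). These 2 collagens thus separated the groups in opposite directions, with little spread between replicates. Sparc, a matrix glycoprotein that binds type IV collagen, had the highest mean of the list, at 3770 ± 2171 FPKM in vestibular and 1240 ± 152 FPKM in cochlear cultures (SD, n = 2 each). Lmna also had a small p (101 ± 2.71 FPKM in vestibular and 65.1 ± 8.53 FPKM in cochlear cultures, SD, n = 2 each), but it encodes nuclear lamins and not a basement membrane protein.

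The list of hemidesmosome genes, the junctions in which Itgb4 holds keratin filaments to the epithelial laminin, had 5 of 8 genes tested, 1 with an unadjusted p under 0.05 in each direction, against the same 7.61% and 10.6% (median difference -0.01). Krt5 was listed at 0 in all 4 libraries, and Krt14 and Col17a1 stayed at or under 0.0636 FPKM. Bcam, a laminin receptor for the Lama5 chain on both of these lists and the highest gene here, had 89.7 and 17.8 FPKM in the vestibular libraries and 263 and 421 FPKM in the cochlear libraries (log2 difference -3.02, SE 0.88, limma adjusted p 0.235). Its order of libraries was that of the epithelial markers. Dst, a linker of filaments to junctions, had 18.2 and 26.9 FPKM in the vestibular libraries, against 11.7 and 10.9 FPKM in the cochlear libraries (log2 difference 0.91). Fermt1, the epithelial kindlin, had 0.581 and 0.187 FPKM in the vestibular libraries, against 1.15 and 2.09 FPKM in the cochlear libraries.

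Among 21 tested integrin ligands outside the laminins, 5 had an unadjusted p under 0.05 with higher and 3 with lower vestibular levels, against 7.61% and 10.6% of all genes (median difference 0.29). Postn, the matricellular ligand periostin, stood at 161 ± 24.7 FPKM in vestibular and 59.8 ± 7.23 FPKM in cochlear cultures (SD, n = 2 each), with a log2 difference of 1.41 (SE 0.17, limma adjusted p 0.112). Cdh1, the epithelial cadherin that Itgae binds, stood at 33.0 ± 1.15 FPKM in vestibular and 134 ± 17.5 FPKM in cochlear cultures (SD, n = 2 each), with a log2 difference of -1.98 (SE 0.14, limma adjusted p 0.0665). It is also on the epithelial marker list, and unlike the sum of that list it was no lower in vestibular 2 than in vestibular 1. Vcam1, the ligand of Itga4, had a log2 difference of 1.51 (SE 0.11, limma adjusted p 0.0743). Spp1, the RGD ligand osteopontin and the most abundant of the list, had a log2 difference of -0.59 (SE 0.34).

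All 35 integrin activators and adhesion adaptors were tested, and 6 had an unadjusted p under 0.05 with higher and 4 with lower vestibular levels, against 7.61% and 10.6% of all genes (median difference 0.17). Actn4, an actin crosslinker at adhesions and cell junctions and the highest gene of the list, had 160 and 148 FPKM in the vestibular libraries and 431 and 452 FPKM in the cochlear libraries (log2 difference -1.51, SE 0.12, limma adjusted p 0.0752). Tgfb1i1, a paxillin relative of mesenchymal cells, had 16.7 and 18.1 FPKM in the vestibular libraries and 6.87 and 5.05 FPKM in the cochlear libraries (log2 difference 1.41, SE 0.18, limma adjusted p 0.116). Tln2, a talin that switches integrins to their active form, had 24.5 and 34.1 FPKM in the vestibular libraries and 11.7 and 9.76 FPKM in the cochlear libraries (log2 difference 1.35, SE 0.21, limma adjusted p 0.134). The more abundant talin, Tln1, had 110 and 104 FPKM in the vestibular libraries, against 113 and 97.7 FPKM in the cochlear libraries, with overlap.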

How the data were processed

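The deposited values are FPKM, 1 per gene symbol and sample, per the file headers. Per the labels' protocols, TRIzol RNA was made into stranded mRNA libraries. Per the submitters' processing notes, the authors used Cuffdiff 2.2.1, SAMtools 0.1.18, TopHat2 2.1.1 and Bowtie2 2.2.8, with mm10. The sources used here do not give the settings, annotation, strand setting or scaling of samples, so FPKM depends on an unknown transcript model, and the depth per sample is unknown. FPKM totals ran from 479380 to 519122 per library. No column lay outside the 4 samples.

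The 13200 genes averaging 1 FPKM or more were compared as log2(FPKM + 1) with limma 3.58.1 in R 4.3.3 (eBayes with a trend, 2-sided, Benjamini-Hochberg over all genes tested, threshold 0.05). Where a library was left out, the lone sample of its group was taken to share the spread of the other group. The fit was tested on simulated data. Alternatives covered the pseudocount (0.1), the filter (none, or a mean of 5), upper quartile scaling, no trend, a replicate block and each library left out. The members, partner lists and marker lists were chosen with earlier results of these data known. Every member but 1 was described; that member and a marker gene enter the counts but are not reported here. Of each partner list, the text names the 3 genes with the smallest p among those without overlap and the gene with the highest mean. Npnt, Tln1, Krt5, Krt14, Col17a1, Plec and Cd151 were named after their values were seen. Positions and overlaps came from GENCODE M21 (GRCm38).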

Additional observations from a re-analysis of the deposited data

How the results depend on the processing

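No member passed limma's adjusted threshold under any alternative run (0 in each). The smallest adjusted p of a member ran from 0.0903 (mean FPKM of at least 5) to 0.542 (without cochlear 2). The filters, the trend and the replicate block leave a difference as it was, so its direction was fixed in those refits. Of 333 member differences refitted under the alternatives, these included, 318 kept their direction and 15 reversed, each on leaving out a library. With each library left out in turn, the log2 differences of these genes ranged from -0.57 to 0.31 for Itga9, -0.44 to 1.31 for Itga10, -0.48 to 0.35 for Itga6, -0.18 to 1.17 for Itga8, -2.18 to 1.01 for Itgax, -0.11 to 0.18 for Itgb1, -0.023 to 0.37 for Itgb8, -0.22 to 3.08 for Lama1, -0.14 to 0.65 for Lamc1, -0.90 to 5.20 for Itgam and -0.57 to 3.47 for Itgb2. Over the same settings the number of members with an unadjusted p under 0.05 ranged from 3 (without cochlear 2) to 16 (without vestibular 1), the number with both vestibular libraries above from 11 to 17, and the median difference of the laminin and nidogen genes from -0.22 (without vestibular 2) to 0.33. That of the integrin genes ranged from -0.10 to 0.37. Among the fits with a library left out, the number of all genes with an unadjusted p under 0.05 moved likewise. It was lowest without cochlear 2 and highest without vestibular 1, so the range of the member count was not particular to the members. With a mean FPKM of at least 5, 27 members were tested and 6 lay above in the vestibular cultures without overlap, fewer because fewer genes were tested. The matching share of all genes was counted only with the main filter, at 26.9%. Nid2 ranged from 2.29 to 2.85 with a library left out, Lama2 from 0.034 to 2.14, Lama5 from -1.23 to -0.40, Lamb2 from 0.66 to 1.503, Nid1 from 0.047 to 0.44, Itga3 from -3.69 to -0.67, Itga7 from -2.18 to -0.32, Itgb4 from -2.03 to -0.41, Itga11 from 1.0 to 2.60, Itgav from 0.18 to 0.37, Itgb3 from 0.26 to 0.85, Itga4 from 0.13 to 1.74 and Itgal from 1.05 to 3.14. The main fit took numbers 1 and 2 as names only. Same-numbered libraries deviated together with r = 0.04 across 13200 genes, which cannot tell whether they were paired. With the replicate block 7 members had an unadjusted p under 0.05 and 0 passed, against 8 and 0 without it, and over all genes 0 passed against 4. The number of fragments is unknown, so counting error could not be given.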
